A study of Mus musculus with 10 samples.

Results

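The mouse embryonic stem (ES) cell line XT67E1 was differentiated in 2 ways, and the promoter mark H3K4me3 was compared directly between the products. The comparison has 2 of the 10 libraries of the series: cells given all-trans retinoic acid (atRA) for 4 days, and cells grown as embryoid bodies (EBs) for 10 days after LIF was withdrawn. Both were chosen by their labels, as the H3K4me3 libraries of these conditions. The H3K4me3 library of undifferentiated XT67E1, kept in serum with LIF on gelatin, is given beside them. All 3 came from 1 line of the strain labelled C3H/Pgk*129 and from an antibody of 1 supplier, and each is the single sample of its group. The agent and the time differ together between atRA and EBs, so an effect of retinoic acid cannot be told apart from one of 4 against 10 days. The labels state the removal of LIF for EBs and do not say whether LIF was present with atRA.

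As background, trimethylation of lysine 4 of histone H3 marks the start sites of active genes and of genes that are ready for activation. H3K27me3 is placed by Polycomb complexes on silent genes, and in ES cells many promoters of developmental regulators carry both marks and are called bivalent. Retinoic acid is a ligand of nuclear receptors that drives ES cells towards neural and posterior fates, while embryoid bodies are aggregates in which derivatives of all germ layers arise. XT67E1 is a female line, in which an X chromosome is silenced during differentiation.

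Each library held 2252395 reads, between 2153974 and 2156836 of them on chromosomes 1 to 19. The midpoints of the read intervals were counted in 2 kb bins of mm9, and 14032 of 1236200 autosomal bins (1.14%) had at least 20 reads in the atRA and EB libraries together. Because genes were not placed on mm9 here, regions are given by position, without gene names, and the labelled cell states were not checked against marker genes. The log2 ratio of atRA over EBs was taken on counts plus 1 read, scaled to autosomal reads and then to the median ratio of the kept bins. A call needed a ratio of at least 2-fold in either direction and a 95% counting interval (Clopper-Pearson, on the split of the bin's reads between the 2 libraries) that did not reach equality. Comparisons with undifferentiated cells used the same rule, and a bin with under 20 reads in the 2 libraries compared could not be called. With 1 library per group there is no replicate check. The intervals cover counting error only, a 95% interval lets counting error alone call some unchanged bins, and no p-value was computed.

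The 2 ways of differentiation gave a largely shared H3K4me3 landscape. Of the kept bins 12789 (91.1%) lay within 2-fold of each other, and the quartiles of the log2 ratio were -0.37 and 0.31. Against this, 226 bins (1.61% of the 14032) were higher with atRA than in EBs, and 691 (4.92%) were lower. At 4-fold or more 10 bins were higher and 106 lower. Joined where at most 1 bin lay between them, the bins made 222 loci with more H3K4me3 after atRA and 656 loci with more in EBs. Single bins made 218 of the former and 622 of the latter. A neighbour under the read minimum could not be called, so these counts cannot show how far the differences extended.

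The balance of the 2 directions depended on the scaling. By autosomal reads alone the median kept bin stood 0.26 (log2) higher with atRA, and 730 bins (5.20%) were higher and 344 (2.45%) lower. By background reads, those of covered bins at or under the median coverage, the shift was 0.34, with 938 (6.68%) higher and 313 (2.23%) lower. All 226 bins higher with atRA were still called higher under both of these. Both raise every ratio by a constant, so no higher call could be lost and lower calls could only drop out. Of the 691 lower bins, 344 and 313 were still called lower. The ratio also moved with the strength of the mark. In bins with 20 to 29 reads the median was -0.26 and 11.6% were lower with atRA, whereas in bins with 80 to 119 reads the median was 0.13 and 0.258% were lower. Bins that carried at least 20 reads in undifferentiated cells took 18.0% of autosomal reads with atRA (Wilson 95% interval 18.0 to 18.1), 14.2% in EBs (14.2 to 14.3) and 20.4% in undifferentiated cells (20.4 to 20.5). The part of this difference in enrichment in the calls was not tested. With each bin set against bins of like read number, a scaling added after seeing the data, 288 (2.05%) were higher and 466 (3.32%) lower. Called in the same direction under all 4 scalings were 188 bins with more H3K4me3 after atRA and 299 with more in EBs. For the higher bins only the setting against bins of like read number could remove a call.

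**Figure D1:**
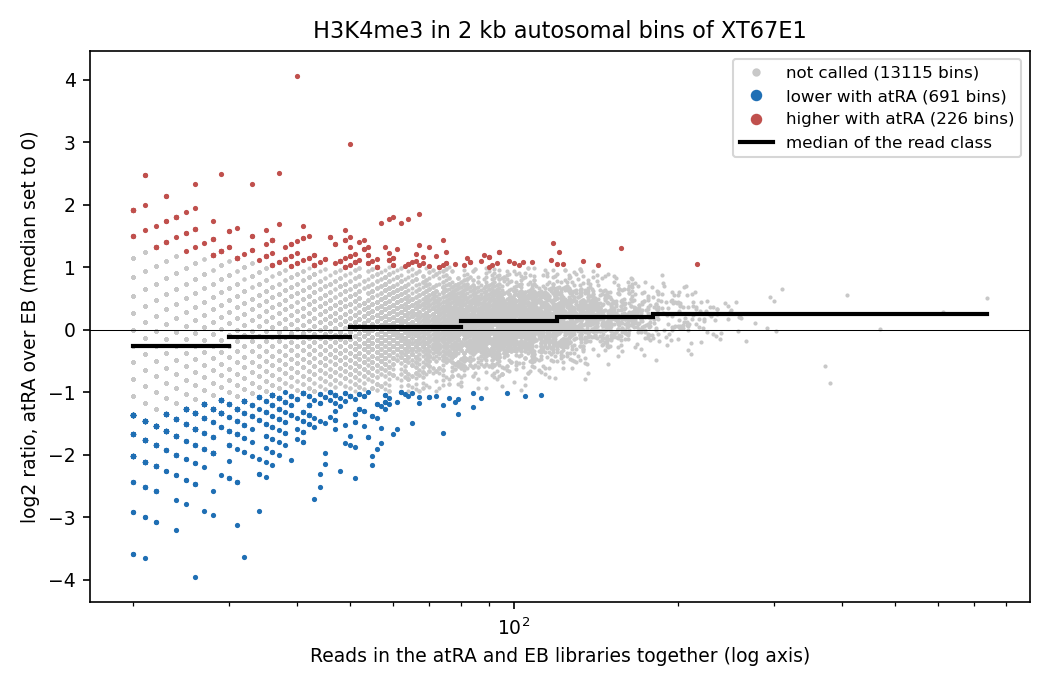
Log2 ratio of H3K4me3 reads, atRA over EBs, against the reads in both libraries together (log axis), for 14032 autosomal bins of 2 kb. Red points are the 226 bins higher with atRA, blue points the 691 lower, grey points were not called, and black lines give the median of each read class, which climbs from -0.26 at 20 to 29 reads to 0.24 at 180 reads or more.

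Among the 10 highest bins with at least 30 reads, 7 were called above undifferentiated cells with atRA and 3 below them in EBs. The highest was on chromosome 17 from 68048001 to 68050000, with 39 reads with atRA, 1 in EBs and 5 undifferentiated (log2 ratio 4.06, counting interval 2.46 to 10.4). Its neighbour from 68046001 was called as well, and together the 2 bins held 72 reads with atRA, 9 in EBs and 31 undifferentiated. In the first bin the mark was called above undifferentiated cells with atRA, while EBs had too few reads for a call. On chromosome 13 from 111184001 to 111186000 a high ratio came about in another way: 46 reads with atRA, 4 in EBs and 33 undifferentiated (2.97, interval 1.81 to 5.20). That bin kept its ES cell level with atRA and was nearly empty in EBs.

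Clear gains with atRA also lay on chromosomes 8 and 5. The bin on chromosome 8 from 11310001 to 11312000 held 33 reads with atRA, 4 in EBs and 3 undifferentiated (2.50, interval 1.29 to 4.74). The bin on chromosome 5 from 40034001 to 40036000 held 29, 4 and 5 reads (2.32, interval 1.08 to 4.56). In both, EBs stayed near the undifferentiated count. A second called bin, from 11314001, joined the first on chromosome 8, and the 6000 bp locus had 118 reads with atRA, 47 in EBs and 31 undifferentiated. Next in rank was a retained bin on chromosome 5 from 75440001 to 75442000, with 55 reads with atRA, 12 in EBs and 39 undifferentiated (1.84, interval 1.02 to 2.97).

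The other 5 of these bins had log2 ratios from 1.71 to 1.80. In 4 of them atRA was called above undifferentiated cells. Chromosome 19 from 44370001 to 44372000 held 49, 11 and 18 reads (atRA, EBs, undifferentiated), chromosome 4 from 132568001 to 132570000 held 50, 12 and 24, and chromosome 2 from 69422001 to 69424000 held 46, 11 and 22. The fourth, on chromosome 6, stands with its neighbours. In the remaining one, chromosome 17 from 21146001 to 21148000, EBs were below undifferentiated cells, with 52, 12 and 33 reads. Among bins higher with atRA the largest read difference lay on chromosome 14 from 99698001 to 99700000, where 155 reads with atRA, 62 in EBs and 162 undifferentiated were counted, again a level kept with atRA.

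One stretch of chromosome 6 had the densest set of bins with more H3K4me3 after atRA. Of 216 windows of 200 kb that held such a bin, the window from 52000001 to 52200000 was the only one with 3, while 207 held 1 and 8 held 2. All 4 of its kept bins had more reads with atRA. The bin from 52108001 to 52110000 held 48 reads with atRA, 11 in EBs and 16 undifferentiated (1.77, interval 0.90 to 2.96). The bin from 52152001 held 21, 4 and 8 reads (1.87, interval 0.56 to 4.13), and that from 52154001 held 21, 7 and 4 (1.20, interval 0.03 to 2.80). In these 3 bins atRA was called above undifferentiated cells and EBs were not called. In those from 52152001 and 52154001, EBs and undifferentiated cells had too few reads together for a call. In the separate H3K27me3 libraries the same window went the other way, with 2169 reads with atRA, 3342 in EBs and 3057 undifferentiated. Within the bin from 52108001, H3K27me3 reads numbered 4 with atRA, 28 in EBs and 17 undifferentiated, and over the 10 kb around it 65, 219 and 179 (log2 ratio -1.69).

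Under the median scaling, bins with more H3K4me3 in EBs were more numerous, whereas by autosomal or background reads they were fewer. At their extremes these bins were weaker in reads. The lowest ratio was on chromosome 4 from 101026001 to 101028000, with 2 reads with atRA, 30 in EBs and 7 undifferentiated (-3.63, interval -7.28 to -2.19). Next came chromosome 19 from 25560001 to 25562000, at 3, 28 and 13 reads (-3.12, interval -5.85 to -1.79). The third bin, on chromosome 17 from 45870001 to 45872000, had 4, 30 and 11 (-2.90, interval -5.14 to -1.66). In these 3 bins EBs exceeded undifferentiated cells by the same size rule, while atRA lay below them with too few reads for a call.

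In 5 further bins the gain in EBs met an atRA count close to or under that of ES cells. They were on chromosome 15 from 79842001 (6 reads with atRA, 37 in EBs, 15 undifferentiated), chromosome 12 from 55302001 (7, 37 and 5), chromosome 10 from 20878001 (5, 26 and 8), chromosome 3 from 135186001 (5, 26 and 12) and chromosome 8 from 73288001 (5, 25 and 4). Their log2 ratios ran from -2.70 to -2.38. H3K27me3 over the surrounding 10 kb was called higher with atRA in the first 3 of these, at 231 reads with atRA against 99 in EBs on chromosome 15, 71 against 27 on chromosome 12 and 139 against 57 on chromosome 10. On chromosomes 3 and 8 it was not, with 11 against 20 and 62 against 60 reads.

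The last 2 of the 10 were called as losses with atRA. Chromosome 7 from 31250001 to 31252000 held 5 reads with atRA, 25 in EBs and 49 undifferentiated (-2.38, interval -4.33 to -1.17). The other, chromosome 8 from 108042001 to 108044000, had 5, 26 and 16 (-2.43, interval -4.38 to -1.24). Against undifferentiated cells this bin stood at -1.44 with atRA and at 1 in EBs, the latter not called. On chromosome 7 both ways of differentiation were under the ES cell count, and atRA was further under it, while EBs were not called.

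**Figure D2:**
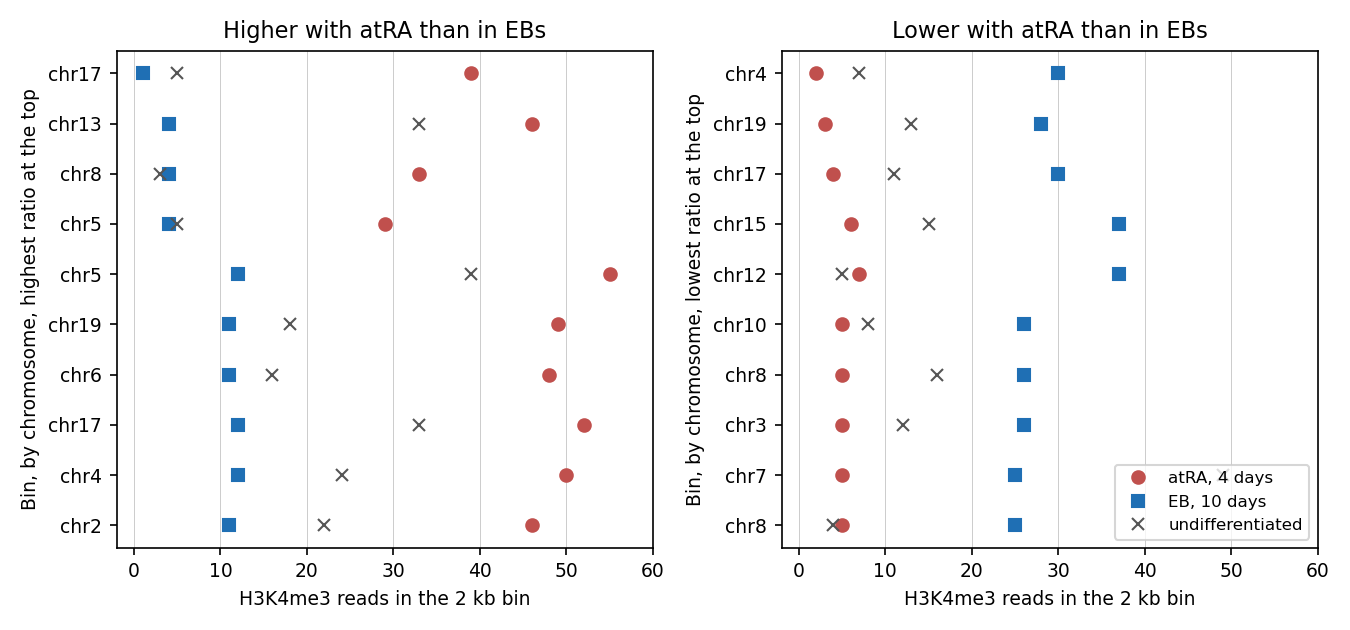
H3K4me3 reads per 2 kb bin (x axis) in the 10 highest (left) and 10 lowest (right) bins by log2 ratio of atRA over EBs, 1 row per bin, with 1 library per symbol. On the left the undifferentiated count (cross) lies near the EB count (blue square) in some rows and nearer the atRA count (red circle) in others, as on chromosome 13; on the right atRA reaches at most 7 reads.

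Wide loci were rare on the EB side as well. The widest ran on chromosome 2 from 162882001 to 162890000, with 3 called bins. It held 28 reads with atRA, 66 in EBs and 147 undifferentiated, so the mark was lower than in ES cells both ways and lowest with atRA. Loci of 2 called bins with the largest read differences were those on chromosome 7 from 52960001 to 52964000 (18 reads with atRA, 71 in EBs, 40 undifferentiated), chromosome 15 from 79842001 to 79846000 (16, 68 and 22), chromosome 8 from 35868001 to 35874000 (90, 139 and 36) and chromosome 11 from 68908001 to 68914000 (15, 63 and 21). In these 4 loci EBs held the most reads of the 3 libraries.

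The densest 200 kb window on the EB side was on chromosome 8 from 73200001 to 73400000, with 5 called bins among 15 kept. Chromosome 8 as a whole had the most reads per kept bin of the autosomes (median 60.5, lowest 46). Its median log2 ratio was the lowest of them, -0.08, and 6.59% of its 926 kept bins were lower with atRA. Gains in EBs made up 4 of them: the bin from 73288001 given above, and those from 73386001 (5 reads with atRA, 24 in EBs, 8 undifferentiated), 73290001 (14, 26 and 9) and 73320001 (17, 30 and 18). The last 2 were not called under any of the other 3 scalings. In H3K4me3 the whole window held 722 reads with atRA, 836 in EBs and 868 undifferentiated, so EBs were not above undifferentiated cells over it. The window on chromosome 6 held 407, 220 and 284. H3K27me3 over the whole window was 2559 reads with atRA, 1659 in EBs and 1755 undifferentiated. H3K27me3 was thus higher with atRA than in the other states here, the reverse of H3K27me3 in the window on chromosome 6. The 2 windows with 4 called bins did not both share this: on chromosome 7 from 52600001 H3K27me3 reads were 976 with atRA and 858 in EBs, and on chromosome 8 from 86600001 they were 867 and 991.

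The undifferentiated counts separated the called bins into gains and losses. The same size rule was applied to atRA against undifferentiated cells, where 5.42% of 14870 kept bins were higher and 11.5% lower, and to EBs against undifferentiated cells, where 6.57% of 15229 were higher and 7.07% lower. These comparisons share libraries with the direct one, so the counts are a description. A bin with under 20 reads in the 2 libraries compared could not be called, so bins not called include those too weak for the rule. Of the 226 bins higher with atRA, 79 (35.0%) were gained with atRA while EBs were not called. Another 35 (15.5%) were lost in EBs while atRA was not called. A further 108 (47.8%) were called in neither. In 104 of those the undifferentiated count lay between the atRA and the EB count.

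Among the 691 bins lower with atRA, gains in EBs and losses with atRA were about equally frequent under the median scaling. There were 220 (31.8%) gained in EBs with atRA not called, 218 (31.5%) lost with atRA with EBs not called and 227 (32.9%) called in neither. The median bin gained with atRA held 29 reads with atRA, 9 in EBs and 9 undifferentiated, and the median bin lost in EBs held 38, 12 and 39. The median bin gained in EBs held 8, 21.5 and 8 reads, and the median bin lost with atRA 8, 22 and 30. Counts of 9 and 9, or of 8 and 8, are under the minimum of 20 reads together. At such counts the state without the gain could not be called. By the rule itself, most lost bins had at least 20 undifferentiated reads (34 of 35 lost in EBs and 200 of 218 lost with atRA) and few gained bins did (13 of 79 with atRA and 5 of 220 in EBs). Scaled by autosomal reads alone the balance was different: 25% of the 344 lower bins were above undifferentiated cells in EBs and 41.6% below them with atRA, and of the 730 higher bins 165 were above them with atRA and 183 below them in EBs.

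A small remainder differed from ES cells in both states. Higher with atRA and gained in both were the bins on chromosome 8 from 28088001 (67 reads with atRA, 26 in EBs, 3 undifferentiated) and chromosome 13 from 51942001 (90, 28 and 10). Lost in both, and more so in EBs, were those on chromosome 10 from 23504001 (27, 10 and 64) and chromosome 19 from 38130001 (20, 4 and 51). These bins are named because they are few, after their values were seen. On the EB side 5 bins were gained in both and 20 lost in both, one of the gains being chromosome 8 from 35872001 (21 reads with atRA, 40 in EBs, 8 undifferentiated).

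H3K27me3 came from separate libraries that played no part in choosing the bins. Over 10 kb around all kept H3K4me3 bins, 0.645% of 13950 bins had H3K27me3 called higher with atRA and 10.7% lower, with a median log2 ratio of -0.27. H3K27me3 reads were therefore fewer with atRA than in EBs around kept H3K4me3 bins in general, relative to the autosomal median. Most of these bins had few such reads. The median 2 kb bin held 4 with atRA, 6 in EBs and 5 undifferentiated, and 10.1% had at least 20 undifferentiated. Whether the shift lies in the mark or in background reads was not tested. Over all 225916 autosomal 10 kb bins with enough reads the shares were 1.10% and 4.06%. Around the 220 bins gained in EBs the median was 0.27 (quartiles -0.17 and 0.60), and H3K27me3 was called higher with atRA in 17 (7.73%) and lower in 4 (1.82%). Around the 79 bins gained with atRA the median was -0.32 (quartiles -0.80 and 0.01), with 0 called higher and 11 (13.9%) lower. All bins not called had a median of -0.27 with 10.8% lower. Those among them with under 20 undifferentiated H3K4me3 reads, as most gained bins had, stood at -0.09 with 6.74% lower. The gained bins of both kinds thus lay on opposite sides of this closer reference.

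Over all called bins the contrast was smaller. The median was 0.03 around the 689 measured bins lower with atRA, of which 26 were called higher in H3K27me3 and 41 lower, and -0.32 around the 224 measured bins higher with atRA, of which 1 was called higher and 33 lower. Weak bins alone, with 20 to 49 H3K4me3 reads, gave 0.02 for those lower with atRA, -0.28 for those higher and -0.16 for those not called. Among bins lower with atRA, those lost with atRA had a median of -0.18, below the 0.27 of those gained in EBs. Among bins higher with atRA, those lost in EBs and those gained with atRA both stood at -0.32.

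Against undifferentiated cells, median H3K27me3 at gained bins was lower in the state that gained H3K4me3 than in the other. At bins gained with atRA the median H3K27me3 log2 ratio was -0.22 for atRA against undifferentiated and 0.12 for EBs. At bins gained in EBs the 2 values were 0.20 and -0.05. In bins not called they were -0.04 and 0.22, and -0.01 and 0.09 in those with under 20 undifferentiated H3K4me3 reads. Bins lost with atRA stood at 0.23 with atRA and 0.44 in EBs, and bins lost in EBs at 0.08 and 0.49.

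The profiles around the bins show the same at 1 kb resolution. In the central 2 kb of bins gained in EBs, H3K27me3 averaged 19.9 reads with atRA, 14.2 in EBs and 16.5 undifferentiated. In bins gained with atRA it averaged 16.0, 21.7 and 19.5. Beyond 15 kb from the centre the libraries were closer for bins gained in EBs, at 5.17, 4.95 and 4.98 reads per kb, whereas around bins gained with atRA the atRA library remained lower, at 3.87 against 4.97 and 4.84. H3K27me3 was peaked on gained bins in each of the 3 libraries. Bins lost with atRA had no such peak, with 8.57 reads with atRA, 8.12 in EBs and 5.44 undifferentiated in the central 2 kb, and the undifferentiated library was the lowest there.

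**Figure D3:**
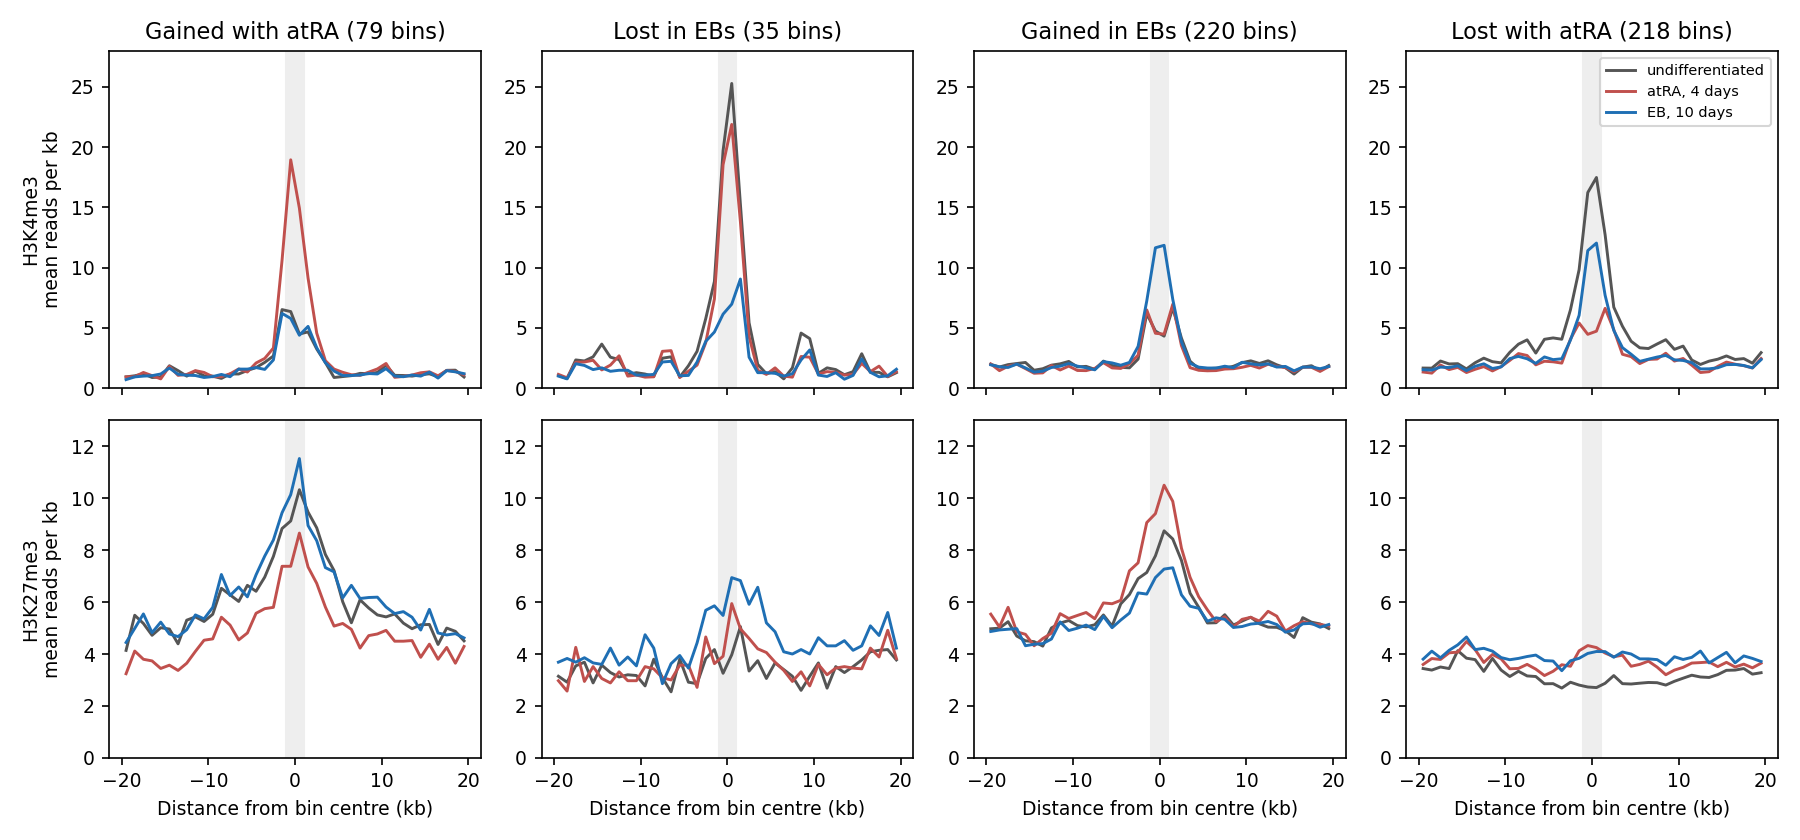
Mean reads per kb of H3K4me3 (top) and H3K27me3 (bottom) against the distance from the bin centre, for bins gained with atRA (79), lost in EBs (35), gained in EBs (220) and lost with atRA (218), with 1 library per line and the bin shaded. The H3K4me3 lines are the values that chose the bins, while H3K27me3 is a separate readout, lowest with atRA at bins gained with atRA and highest with atRA at bins gained in EBs.

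Gained bins often carried H3K27me3 before differentiation. At least 20 H3K27me3 reads in the 2 kb bin of undifferentiated cells were found in 33 of the 79 bins gained with atRA (41.8%). The same held for 66 of the 220 bins gained in EBs (30%). Among bins not called whose undifferentiated H3K4me3 count was also under 20 reads, the share was 22.8% of 4331. Lost bins had it in 2 of 35 (EBs, 5.71%) and 9 of 218 (atRA, 4.13%), where bins not called with at least 20 undifferentiated H3K4me3 reads had it in 2.93% of 8784.

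**Figure D4:**
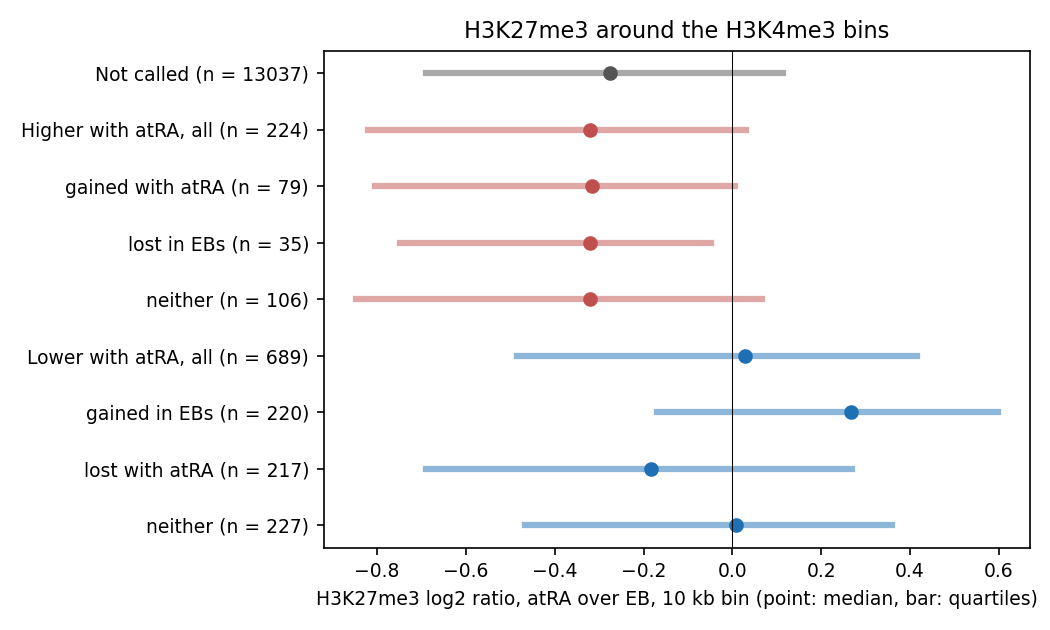
Median (point) and quartiles (bar) of the H3K27me3 log2 ratio of atRA over EBs in the 10 kb around autosomal H3K4me3 bins, by call and by state against undifferentiated cells. Bins gained in EBs stand at 0.27, above all the other classes drawn, and the classes higher with atRA have medians near -0.32; all bins not called, strong and weak, stand at -0.27.

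The EBs of 2 other ES lines, LF2 and E14, share no library with this comparison. At bins gained in XT67E1 EBs the median H3K27me3 log2 ratio of EBs against undifferentiated cells was -0.45 in LF2 and -0.25 in E14, beside -0.37 and -0.19 over bins not called with under 20 undifferentiated H3K4me3 reads (-0.19 and -0.17 over all bins not called). At bins gained with atRA in XT67E1 it was -0.60 and -0.43, so H3K27me3 in the EBs of LF2 and E14 was lower than in their ES cells there too. In XT67E1 EBs those bins stood at 0.12. At bins lost with atRA the values were 0.18 in LF2 and 0.17 in E14, and at bins lost in EBs -0.03 and -0.06.

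Many called bins lay away from regions marked in ES cells, and so did weak bins in general. Neither the bin nor its neighbours reached 20 undifferentiated reads in 78 of the 226 bins higher with atRA (34.5%) and in 281 of the 691 lower (40.7%), against 22.1% of bins not called. Among weak bins of 20 to 49 reads, a restriction added after seeing the data, the shares were 49.6%, 43.2% and 41.4%, so the lower bins differed little from bins not called of like strength.

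The X chromosome, outside the autosomal comparison, had more H3K4me3 with atRA than in EBs. Of its 521 kept bins 33 (6.33%) were higher with atRA and 17 (3.26%) lower, while on autosomes the share higher ran from 0.972% on chromosome 8 to 4.34% on chromosome 13 and the share lower from 3.61% to 6.69%. The median X bin lay at 0.15, above the autosomes, whose medians ran from -0.08 to 0.08. With bins of like read number as reference it lay at 0.19, against -0.11 to 0.08. Reads outside the kept bins were also denser on X with atRA, at 1.03 times EBs, where autosomes ran from 0.980 to 1.02.

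Set against undifferentiated cells, the X median was 0.00 with atRA and -0.19 in EBs. Of 550 X bins kept for atRA against undifferentiated 6.73% were higher (autosomes 5.42%) and 9.45% lower (autosomes 11.5%). Of 519 for EBs 4.62% were higher (autosomes 6.57%) and 8.09% lower (autosomes 7.07%). H3K27me3 density on X with atRA was 0.849 times that of EBs, below the autosomes (0.973 to 1.03). Around kept X bins its median log2 ratio was -0.66, where the autosomes ran from -0.35 to -0.15. The H3K4me3 difference of atRA over EBs was spread along X, with medians of 0.17, 0.11, 0.16 and 0.18 in successive parts of 42 Mb. Of the called X bins 31 of the 33 higher and 7 of the 17 lower were called under all 4 scalings. Scaling by autosomal or by background reads raises every ratio by a constant, on X as on autosomes. Under these scalings no higher call could be lost and lower calls could only drop out. The counts therefore cannot show which direction on X is the firmer. Among the 33 bins higher with atRA, 10 were gained with atRA, 8 lost in EBs and 15 neither.

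Single X bins, named after their values were seen, reached log2 ratios of 3.58 and -3.20, inside the autosomal extremes. The bin from 137346001 to 137348000 held 42 reads with atRA, 2 in EBs and 15 undifferentiated (3.58, interval 2.19 to 7.22). Adjacent bins from 98988001 and 98990001 held 63, 9 and 17 reads and 36, 8 and 6. In the other direction the bin from 140772001 to 140774000 held 2 reads with atRA, 22 in EBs and 16 undifferentiated (-3.20, interval -6.86 to -1.70), and that from 155956001 held 3, 17 and 26. Neither of these last 2 bins was called above undifferentiated cells in EBs. X thus held called bins in both directions besides the shift of its median.

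Chromosome 13 had the largest autosomal share of bins higher with atRA, 24 of 553. They were spread from 5862001 to 115250000 and its density over all reads was 1.01 times that of EBs. Its median log2 ratio against undifferentiated cells was 0.11 with atRA and 0.06 in EBs, in both cases the highest of the autosomes.

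**Figure D5:**
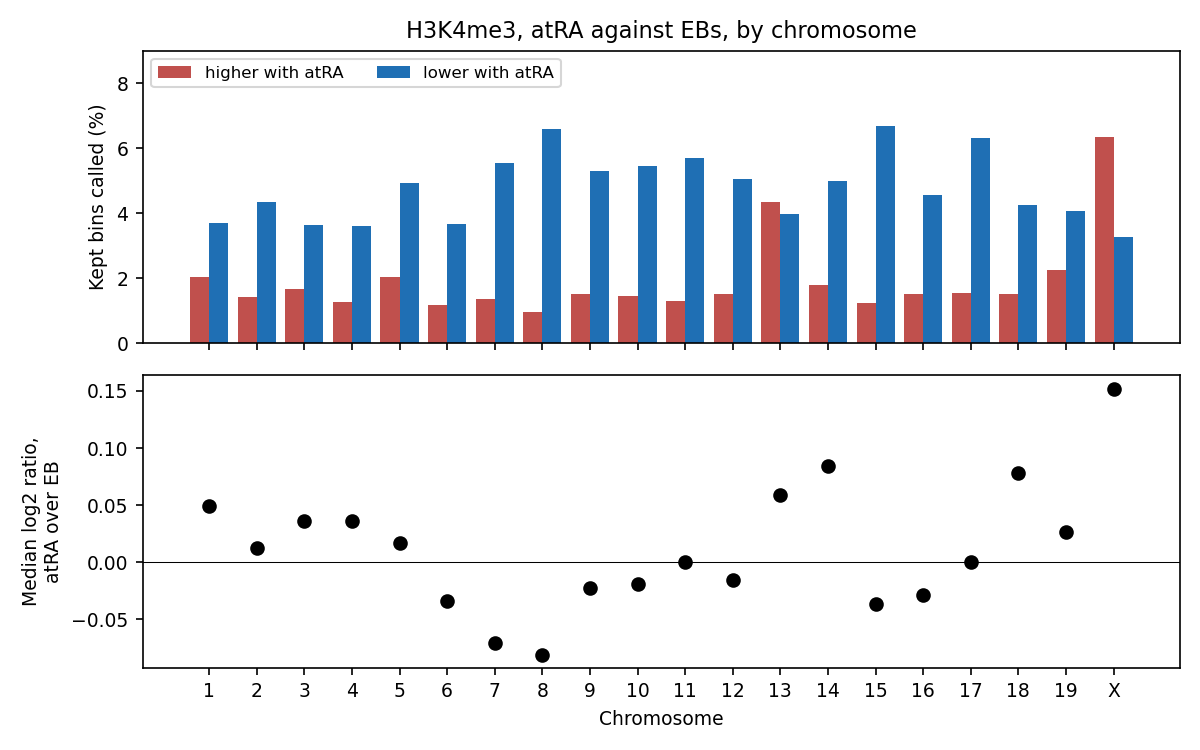
Share of kept 2 kb bins called higher (red) or lower (blue) with atRA than in EBs (top, percent) and median log2 ratio (bottom) for each autosome and X, 1 library per condition. X has the highest share of bins higher with atRA, 6.33%, and the highest median, 0.15, and chromosome 13 follows in the share, with 4.34%.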

How the data were processed

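Chromatin immunoprecipitation sequencing of histone marks was done by the authors. Each deposited file lists 200 bp read intervals without strand, with no value per row (unit other), on the mm9 build, per the submitters' processing notes. For the aligner, filters and interval extension, the sources used here give nothing. No interval was repeated within a file, and files of a set held equal numbers of reads, so total depth did not differ.

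Interval midpoints were counted in 2 kb bins (H3K4me3) or 10 kb bins (H3K27me3) with Python 3.11.15, numpy 2.4.6, pandas 2.3.3 and scipy 1.17.1. Scaling, the minimum of 20 reads, the pseudocount of 1 read and the size rule are given with the results; H3K27me3 ratios used the same settings. The rule was also run on simulated reads, and the outcome is not given here and not used as support for the calls. Called bins were joined across at most 1 bin. Bins named are the 10 highest and 10 lowest by ratio, 1 per locus, with a minimum of 30 reads, the 5 loci per direction with the most called bins, ties going to the larger read difference, and bins called in opposite directions against undifferentiated cells. Bins of the densest windows and on X were added after seeing the values. The comparison and these rules were chosen with earlier results of these data known. Alternatives changed the read minimum, pseudocount, scaling, bins, thresholds and joining. Gene lists need an annotation of mm9 and were not used here.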

Additional observations from a re-analysis of the deposited data

Results flagged for a closer look

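One 2 kb bin was called in opposite directions by the 2 ways of differentiation, each against undifferentiated cells. It lies on chromosome 2 from 71712001 to 71714000, where H3K4me3 reads numbered 8 with atRA, 36 in EBs and 20 undifferentiated. The log2 ratio was -1.16 for atRA against undifferentiated and 1.15 for EBs against undifferentiated, and -2.30 for atRA against EBs directly. H3K27me3 over the surrounding 10 kb was 19 reads with atRA, 20 in EBs and 20 undifferentiated. With 1 library per state, the difference between the 2 effects was not tested.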

How the results depend on the processing

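Depth limits weak bins most, and the counting intervals leave out all variation between cultures. Without a read minimum 2430 bins were higher with atRA and 3073 lower, and the X median minus the autosomal one was 0; at a minimum of 50 reads the counts were 46 and 112. A pseudocount of 5 reads left 106 higher. By autosomal reads only there were 730 higher and 344 lower bins, in 699 and 329 loci, and by background 938 and 313. Bins of 10 kb gave 801 and 1470, a 4-fold threshold 10 and 106, and 99% intervals 131 and 356. The cause of these moves was not tested, beyond the stricter or looser thresholds themselves.

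Median H3K27me3 log2 ratios in the 2 kb bin itself were -0.44 for bins higher with atRA, 0.29 for bins lower and -0.12 for bins not called. Lower bins called under every scaling stood at 0.11. Bins not called stood at -0.24 with a pseudocount of 5, -0.33 by autosomal reads only and -0.16 for weak bins. By autosomal reads only, 22.6% of the higher bins were above undifferentiated with atRA and 25.1% below it in EBs, and 25% of the lower bins were above it in EBs and 41.6% below it with atRA. For lower bins called under every scaling the last shares were 40.1% and 42.1%. All 20 named bins kept their call under the 4 alternatives tried on them, which were 3 scalings and the pseudocount. The bins were chosen for extreme ratios, so this was largely fixed by the choice. The minimum of 50 reads was not tried on them.

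Scaling by read number, and the restrictions to weak bins, to bins called under every scaling and, for X, to 50 reads, were chosen after seeing the data.

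No paired analysis was possible because each group has 1 library and the labels carry no replicate number.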

Other observations

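Some of the called bins described above had almost no H3K4me3 in undifferentiated cells, at 0 to 4 reads. They were 24 of the 226 bins higher with atRA and 47 of the 691 lower. Of these, 20 were among the bins gained with atRA and not called in EBs. Another 30 were among those gained in EBs and not called with atRA. The share over all kept bins is not given here, so the counts are a description. Examples, chosen after their values were seen, are chromosome 9 from 66894001, with 26 reads with atRA, 3 in EBs and 1 undifferentiated, and chromosome 7 from 77510001, with 19, 2 and 1. On the EB side chromosome 12 from 75048001 held 4 reads with atRA, 24 in EBs and 3 undifferentiated, and chromosome 5 from 58110001 held 4, 17 and 1. That last bin had, in its 2 kb, 103 H3K27me3 reads with atRA, 53 in EBs and 66 undifferentiated.

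Coverage near the read minimum was common. There were 413 autosomal bins at exactly 20 reads, of which 73 were called, and 441 bins at 19 reads were just outside the minimum.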
